A study of Mus musculus with 32 samples.

Results

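Respiratory complex I (NADH:ubiquinone oxidoreductase) takes electrons from NADH at the flavin of its matrix arm, passes them along a chain of iron-sulphur clusters to ubiquinone and pumps protons across the inner mitochondrial membrane through its membrane arm. The catalytic core of the matrix arm is encoded in the nucleus and the pumping core of the membrane arm in mitochondrial DNA, while accessory subunits, all nuclear, surround both. Neural stem cells (NSCs) are known to draw on glycolysis and to lean more on oxidative phosphorylation as they differentiate.

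The genes described here are the protein-coding mouse genes whose symbol starts with Ndufa, Ndufb, Ndufc, Ndufs or Ndufv followed by a digit, with Ndufab1 kept and the Ndufaf assembly factors left out. The rule found 38 genes among the 23035 of the footprint tables, and all 38 were also among the 39017 genes of the total RNA tables. No measured value entered the rule, but the members were chosen with earlier results of these data known. By known role, 7 are core subunits of the matrix arm (among them Ndufv1, Ndufs1 and Ndufs8), 9 are accessory subunits of the matrix arm, 9 are accessory subunits of the membrane arm from the A, C and S series and 10 are membrane arm subunits of the B series. The other members are Ndufab1, the mitochondrial acyl carrier protein, Ndufa4, which is now placed with cytochrome c oxidase, and its relative Ndufa4l2. Ndufb1 is annotated as a noncoding RNA in the annotation used and was not a member.

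Ribo-Seq sequences the mRNA fragments that translating ribosomes protect, so the count of footprints in a coding sequence (CDS) reflects both how much of the mRNA there is and how densely ribosomes sit on it. NSCs were grown from the ventricular-subventricular zone (vSVZ) of male C57BL/6 mice aged 8-12 weeks and, 48 h after seeding, were given vehicle or interferon-β (IFN-β) for 2 h or 14 h, followed by a short cycloheximide block before lysis. The long exposure is called 14 h here, as in the sample labels. Each of the 4 groups (vehicle 2 h, IFN-β 2 h, vehicle 14 h, IFN-β 14 h) held 4 cultures from different mice, and footprints and total RNA were each sequenced from every culture. The cells are bulk cultures outside the brain, so fewer cells of a type and less RNA per cell cannot be told apart.

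Footprint libraries held 2956297 to 10505108 counts in CDS and total RNA libraries 1370008 to 7877753. The smallest footprint library was IFN-β 14 h replicate 1. All 10 NSC markers checked (among them Sox2, Nes and Slc1a3) averaged at least 1 CPM (counts scaled to a common library size of 1e+06) in each footprint group, and their summed level lay between 11627 and 13549 CPM with vehicle and between 10760 and 12595 CPM with IFN-β at 14 h. Markers of other cells moved at 14 h. The 6 microglial markers summed to 5.99-8.63 CPM with vehicle and 21.02-26.7 CPM with IFN-β, of which P2ry12 alone passed the filter, while Aif1, Cx3cr1 and C1qa were at 0 in both groups. The 6 oligodendrocyte markers summed to 99.2-127 and 219-299 CPM, mostly Cnp, and the 5 ependymal markers to 24.5-32.3 and 53.9-68.0 CPM, mostly Foxj1, with Tmem212 at 0. The 8 neuroblast markers summed to 128-156 and 155-190 CPM and the 5 endothelial markers to 10.5-14.5 and 11.1-15.0 CPM. Their part in the results below was not tested.

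Footprints on complex I mRNAs were abundant in these cells. With vehicle at 14 h, the median member carried 303 CPM per kb of CDS, against a median of 21.2 CPM per kb over the 11807 protein-coding genes tested, and 37 of the 38 members lay above that median. Ndufc2, a small membrane arm subunit, had the highest density, 1632 ± 65.1 CPM per kb (SD, n = 4), and Ndufa4 followed with 1344 ± 74 CPM per kb. The next was Ndufa2, a matrix arm subunit, with 639.5 ± 50.9 CPM per kb. The 7 core subunits ranged from 115 ± 5.49 CPM per kb on Ndufs1, the large iron-sulphur subunit of the electron input module, to 401 ± 13.7 CPM per kb on Ndufv2, and their median of 194 CPM per kb was below the medians of the matrix arm accessory subunits (357), of the A, C and S series (369) and of the B series (321). The CDS of the core subunits ran from 636 bp (Ndufs8) to 2192 bp (Ndufs1), against a median of 450 bp over the members. The part of CDS length in this difference between classes was not tested. Density was lowest on Ndufa4l2, 20.7 ± 4.08 CPM per kb, and on Ndufb4, 35.4 ± 9.47 CPM per kb.

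**Figure D1:**
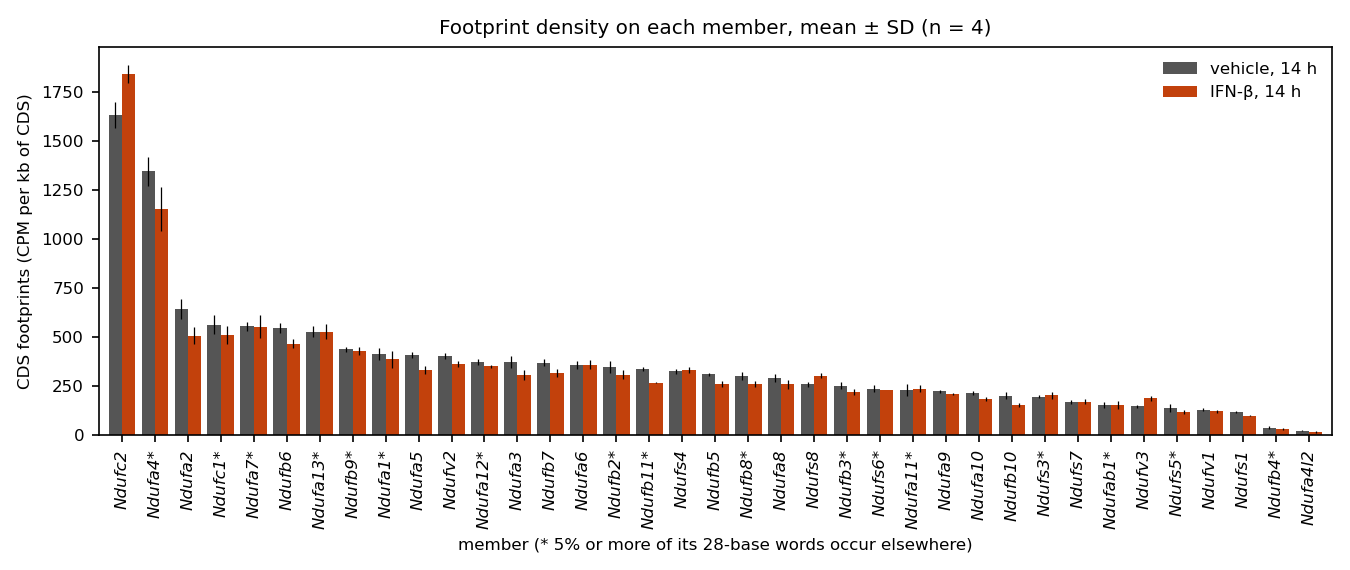
Footprint density on 37 of the 38 members at 14 h, in CPM per kb of CDS (vertical axis, linear), as mean and SD of 4 vehicle (grey) and 4 IFN-β (orange) libraries, ordered by the vehicle mean. Ndufc2 and Ndufa4 stood far above the other members in both groups, and an asterisk marks the 17 members whose CDS shares 5% or more of its 28-base words with another annotated transcript.

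Complex I genes have many processed pseudogenes, and footprints are only 26-34 nt long, so some reads fit more than 1 gene. How such reads were placed was not tested. Of the 38 members, 11 shared no 28-base word of their CDS with another gene, 21 shared under 5% and 8 shared at least 40%. Ndufb4 and Ndufab1 shared all of theirs, Ndufs5 shared 82.1%, Ndufa12 76.7% and Ndufs3 69.7%, so the levels of these genes are uncertain. Ndufc2, Ndufs8, Ndufv3 and Ndufb10 shared none. The CDS of the members was short, with a median of 450 bp and a range from 210 bp (Ndufa1) to 2192 bp (Ndufs1), counted as the union over annotated isoforms.

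The first comparison asks what 2 h of IFN-β did to the share of footprints on these mRNAs. Counts were scaled to each library, so every change below is relative to the other genes and gives no absolute ribosome load. No member passed edgeR's quasi-likelihood test at 2 h (adjusted p under 0.05), where 7.25% of the 12104 genes tested did. None had an unadjusted p under 0.05 either, and DESeq2 also called none. The log2 fold changes of the 38 members, IFN-β over vehicle, ran from -0.15 (Ndufv3) to 0.13 (Ndufs6), with a median of -0.02, equal to that of all genes at this precision. The 95% interval of each of the 38 lay within ±0.5. The median size of the change, whatever its sign, was 0.05 on the log2 scale for the members and 0.14 for all genes tested. The members also had more counts, with a median of 1143.5 footprints per library against 231 for the genes tested. The part of count depth in this difference of size was not tested. For no member did the 2 h groups separate completely, with the IFN-β libraries all on one side of the vehicle libraries, as they did for 12.9% of the genes tested.

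Replicate numbers paired the footprint libraries, since same-numbered vehicle and IFN-β libraries deviated together in every pair. The fit given first in each comparison left this pairing out. With the replicate number as a block, 1 member was called at 2 h, where 29.2% of all genes were called. This was Ndufv3, lower with IFN-β (log2 fold change -0.16, adjusted p = 0.0225). Ndufv3 encodes an accessory subunit beside the flavin site.

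The second comparison asks what 14 h of IFN-β did. Here 17 of the 38 members changed, 3 upward and 14 downward, which is 44.7%, below the background of 52.5% of the 12113 genes tested. By direction, 36.8% of the members were called lower, against 26.3% of all genes, and 7.89% were called higher, against 26.2%. These shares were not tested against each other. The median log2 fold change was -0.15 over the members and 0.00 over all genes. The members lay between -0.39 and 0.36 on the log2 scale, all 38 under 0.4 in size, as did 65.4% of the genes tested, and the 95% interval of 34 members lay within ±0.5. The median footprint count per library was 1130 for the members and 231 for the genes tested, and the part of this depth was not tested. Of the genes that averaged 50 counts or more, 56.3% were called. All IFN-β libraries lay above all vehicle libraries for 3 members and below them for 11, and 46.2% of the genes tested had groups that did not overlap in this way.

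**Figure D2:**
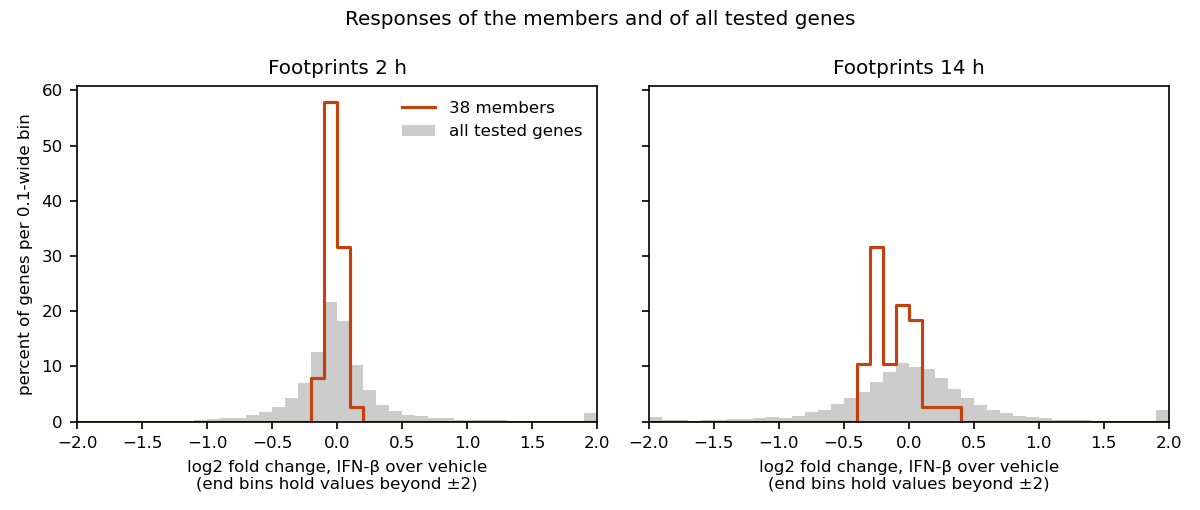
Share of genes (percent, vertical axis) in 0.1-wide bins of the log2 fold change of footprints, IFN-β over vehicle, at 2 h (left) and 14 h (right), for all tested genes (grey bars) and the 38 members (orange line). The members sat in a narrow band around 0 at 2 h and between -0.39 and 0.36 at 14 h, with a median of -0.15, while all genes spread beyond this band. All genes had fewer counts at the median than the members, and the part of count depth in the spread was not tested.

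**Figure D3:**
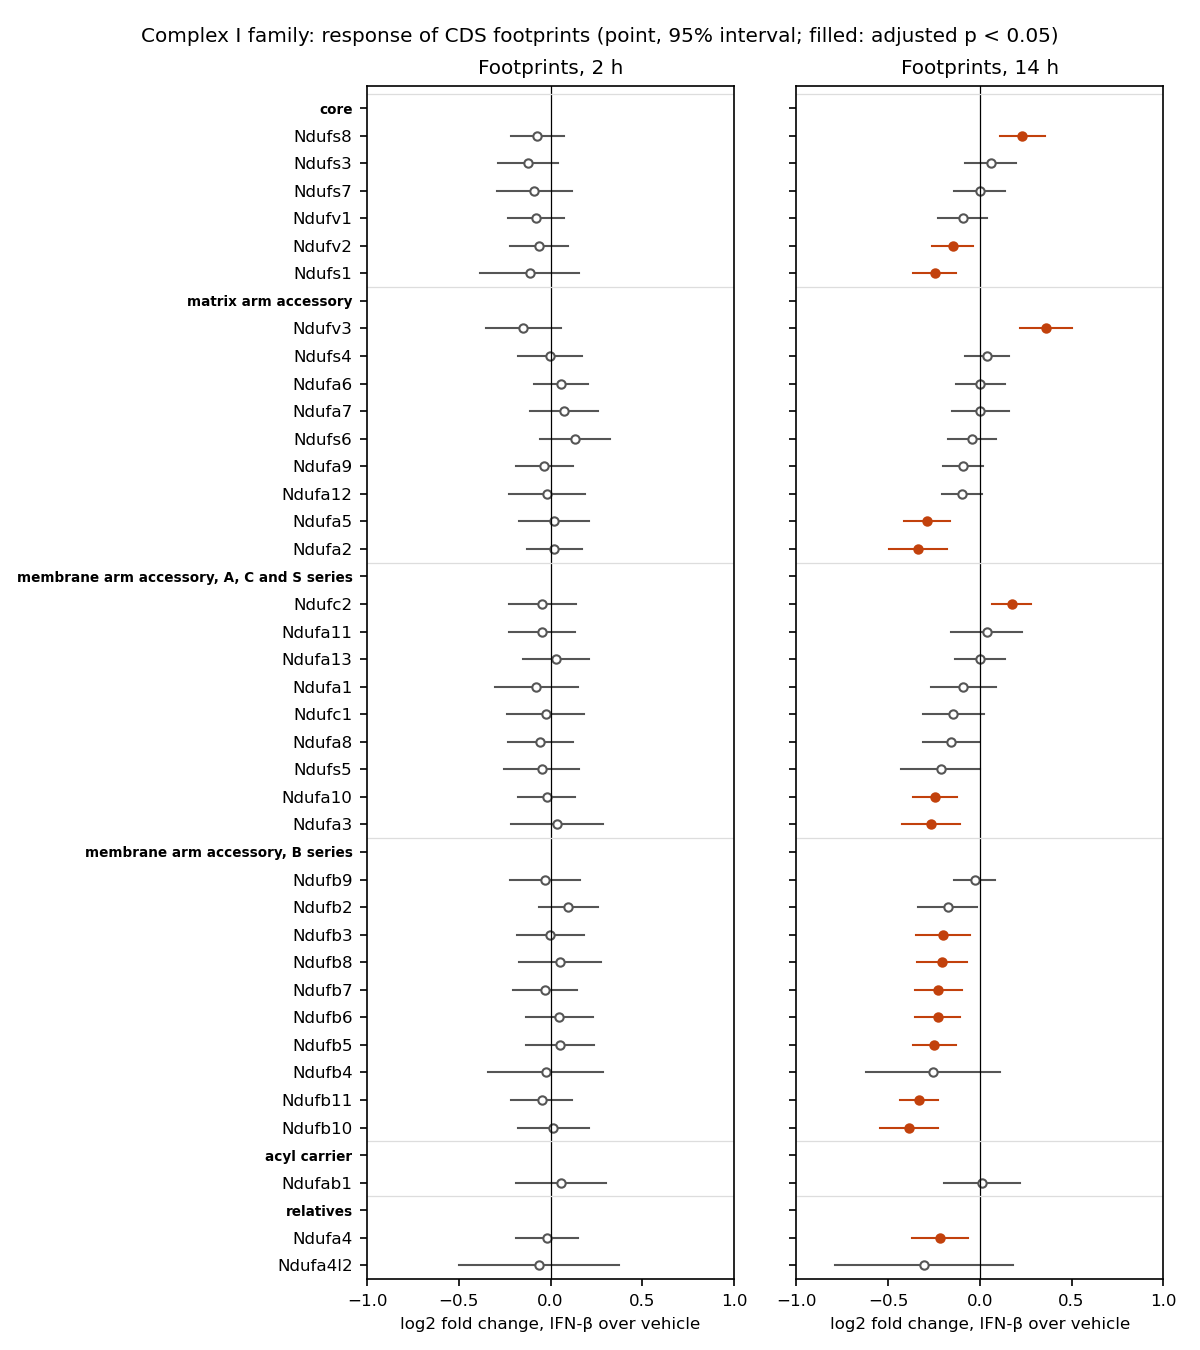
Log2 fold change of footprints, IFN-β over vehicle, for 37 of the 38 members at 2 h (left) and 14 h (right), grouped by role, with its 95% interval from the edgeR fit over 8 libraries. Filled orange points passed an adjusted p under 0.05, none at 2 h and 17 at 14 h, of which 7 were B series subunits.

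The 3 members that rose at 14 h, relative to the other genes, came from 3 different places in the complex. The paper reports that total protein synthesis fell strongly after long exposure to IFN-β, which these scaled counts cannot show. Ndufv3 (chr17:31520115-31531331, plus strand) measured 194, 219, 215 and 228 CPM with vehicle (replicates 1 to 4 in order) and 268, 269, 261 and 303 CPM with IFN-β. The groups did not overlap, and the fitted rise was the largest among the members (log2 fold change 0.36 ± 0.07 SE, adjusted p = 0.000511). At 2 h the same gene had 234, 223, 222 and 217 CPM with vehicle (replicates 2, 3, 5 and 6 in order) and 206, 230.5, 195 and 177 CPM with IFN-β, so the groups overlapped there and 3 of 4 IFN-β libraries were below every vehicle library.

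Ndufs8 (chr19:3908863-3912774, minus strand), a core subunit that carries iron-sulphur clusters towards the quinone site, measured 157, 157, 163 and 175 CPM with vehicle and 184, 184, 196 and 202 CPM with IFN-β at 14 h. All IFN-β libraries were above all vehicle libraries (log2 fold change 0.23 ± 0.06 SE, adjusted p = 0.00416). The 2 h libraries had 179, 186, 189.9 and 194 CPM with vehicle and 178, 177, 177 and 179 CPM with IFN-β, and these groups overlapped.

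Ndufc2 (chr7:97400003-97407802, plus strand), the most densely covered member, measured 633, 616, 598 and 576 CPM with vehicle and 666, 676, 706 and 682 CPM with IFN-β at 14 h. The groups did not overlap and the rise was the smallest of the 3 (log2 fold change 0.17 ± 0.05 SE, adjusted p = 0.0104). Values at 2 h were 495, 430.3, 449 and 477 and 482, 418, 445 and 449 CPM, with overlap.

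In the B series of the membrane arm 7 of 10 members fell (70%, against 26.3% of all genes) and none rose (against 26.2%). This split was not tested against the other classes. The log2 fold changes of the 10 had a median of -0.23 and ran from -0.39 to -0.03. The strongest fall of all was that of Ndufb10 (chr17:24722060-24724478, minus strand), a membrane arm subunit. It measured 97.3, 119, 118 and 119 CPM with vehicle and 79.4, 86.5, 88.2 and 92.7 CPM with IFN-β at 14 h (log2 fold change -0.39 ± 0.07 SE, adjusted p = 0.000777). The groups did not overlap, although vehicle replicate 1 was closer to the IFN-β libraries than the other vehicle libraries were. At 2 h Ndufb10 had 107, 98.4, 108 and 109 CPM with vehicle and 122, 102, 104 and 99.4 CPM with IFN-β.

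Ndufb11 (chrX:20615326-20617619, minus strand), an X-linked membrane arm subunit, measured 153, 156, 148 and 149 CPM with vehicle and 119, 119, 122 and 122 CPM with IFN-β at 14 h. The IFN-β libraries lay within a few CPM of each other and below every vehicle library, which gave the smallest adjusted p of all members (log2 fold change -0.33 ± 0.05 SE, adjusted p = 8.86e-05). Its 2 h values were 146, 158, 139 and 135 CPM with vehicle and 135, 143, 140.0 and 141 CPM with IFN-β. Of its 28-base CDS words 44.1% were shared with a pseudogene.

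The other B series members that fell were Ndufb5 (-0.25), Ndufb6 (-0.23), Ndufb7 (-0.23), Ndufb8 (-0.21) and Ndufb3 (-0.20), values being log2 fold changes. Ndufb2 and Ndufb4 had values of -0.17 and -0.25 and Ndufb9 one of -0.03 without passing the test. Leaving out vehicle replicate 2 removed the calls on Ndufb8 (adjusted p = 0.0515) and Ndufb3 (adjusted p = 0.0985) and left 5 of the 10. Ndufb3 also lost its call without IFN-β replicate 1, 2 or 4 or vehicle replicate 4 (adjusted p from 0.0568 to 0.0649).

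In the matrix arm, 2 accessory subunits fell, 1 rose and the median of the 9 was -0.04. By direction, 22.2% fell and 11.1% rose, against 26.3% and 26.2% of all genes. Ndufa2, a thioredoxin-fold subunit, measured 168, 201, 195 and 196 CPM with vehicle and 137, 143, 152 and 167 CPM with IFN-β at 14 h. The groups were apart by a narrow margin, since vehicle replicate 1 and IFN-β replicate 4 were close (log2 fold change -0.34 ± 0.07 SE, adjusted p = 0.00189). In the 2 h libraries Ndufa2 had 200.0, 204, 204 and 211 CPM with vehicle and 197, 212, 216 and 206 CPM with IFN-β.

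Ndufa5 (chr6:24518666-24528013, minus strand), a subunit bound to the quinone module, measured 146, 134, 139 and 144 CPM with vehicle and 105, 119, 117 and 118 CPM with IFN-β at 14 h. All IFN-β libraries were below all vehicle libraries, and IFN-β replicate 1 stood lower than the other 3 (log2 fold change -0.29 ± 0.06 SE, adjusted p = 0.001). At 2 h it had 139.5, 128, 151 and 148 CPM with vehicle and 146, 129.8, 153 and 145 CPM with IFN-β. The other 6 subunits of this group, which include Ndufs4 and Ndufs6 of the electron input module, Ndufa9 and the LYR-motif protein Ndufa6, had log2 fold changes from -0.10 to 0.04 and did not pass the test.

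Of the 7 core subunits, 1 rose (Ndufs8) and 2 fell. These were 14.3% and 28.6%, against 26.2% and 26.3% of all genes. The falls were those of Ndufs1 (log2 fold change -0.25 ± 0.05 SE, adjusted p = 0.00215), and of Ndufv2, which carries an iron-sulphur cluster beside the flavin (log2 fold change -0.15 ± 0.05 SE, adjusted p = 0.0276). The call on Ndufv2 was lost without any one of IFN-β replicates 1, 2 and 4 or of vehicle replicates 1, 2 and 3 (adjusted p from 0.0512 to 0.0819). Ndufv1, the flavin subunit, had -0.09, and Ndufs3 and Ndufs7, which belong to the quinone module with Ndufs8, had 0.06 and -0.00, none of which passed.

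Among the membrane arm subunits of the A, C and S series, Ndufa3 (-0.27) and Ndufa10 (-0.24) fell, Ndufc2 rose and the median of the 9 was -0.14. Thus 22.2% fell and 11.1% rose, against 26.3% and 26.2% of all genes. The others, from Ndufs5 (-0.21) to Ndufa11 (0.04), did not pass, among them Ndufa13 (0.00), also known as GRIM-19 from work on interferon and retinoic acid.

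The 3 genes outside these classes differed from each other. Ndufa4 (chr6:11900292-11907497, minus strand) measured 311, 353, 321 and 337 CPM with vehicle and 243, 299, 286 and 306 CPM with IFN-β at 14 h. Every IFN-β library was below every vehicle library (log2 fold change -0.22 ± 0.07 SE, adjusted p = 0.0211), a call lost without vehicle replicate 2 (adjusted p = 0.0721). At 2 h it had 305, 343, 313 and 309 CPM with vehicle and 309, 297, 322 and 326 CPM with IFN-β.

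Ndufab1 (chr7:122085403-122101886, minus strand), needed for mitochondrial fatty acid synthesis as well as for complex I, measured 78.8, 75.6, 63.5 and 66.9 CPM with vehicle and 64.7, 85.8, 68.4 and 66 CPM with IFN-β at 14 h. The groups overlapped (log2 fold change 0.01 ± 0.10 SE, adjusted p = 0.925), with a 95% interval from -0.20 to 0.22. At 2 h Ndufab1 had 44.8, 40.1, 50.9 and 56.5 CPM with vehicle and 48.3, 49, 51.4 and 51.3 CPM with IFN-β.

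Ndufa4l2 (chr10:127514967-127517154, plus strand), known as a target of the hypoxia response, had few footprints. It measured 5.69, 6.67, 5.11 and 4.13 CPM with vehicle and 2.01, 4.17, 4.96 and 5.01 CPM with IFN-β at 14 h, which rests on 6 to 66 counts per library (log2 fold change -0.30 ± 0.22 SE, adjusted p = 0.275). The 2 h libraries had 5.87, 5.85, 7.89 and 5.71 CPM with vehicle and 5.74, 4.86, 5.85 and 7.72 CPM with IFN-β. Its 95% interval at 14 h, from -0.79 to 0.18, was the widest of the members, so a change of the size seen in Ndufa4 was not detectable at this depth.

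**Figure D4:**
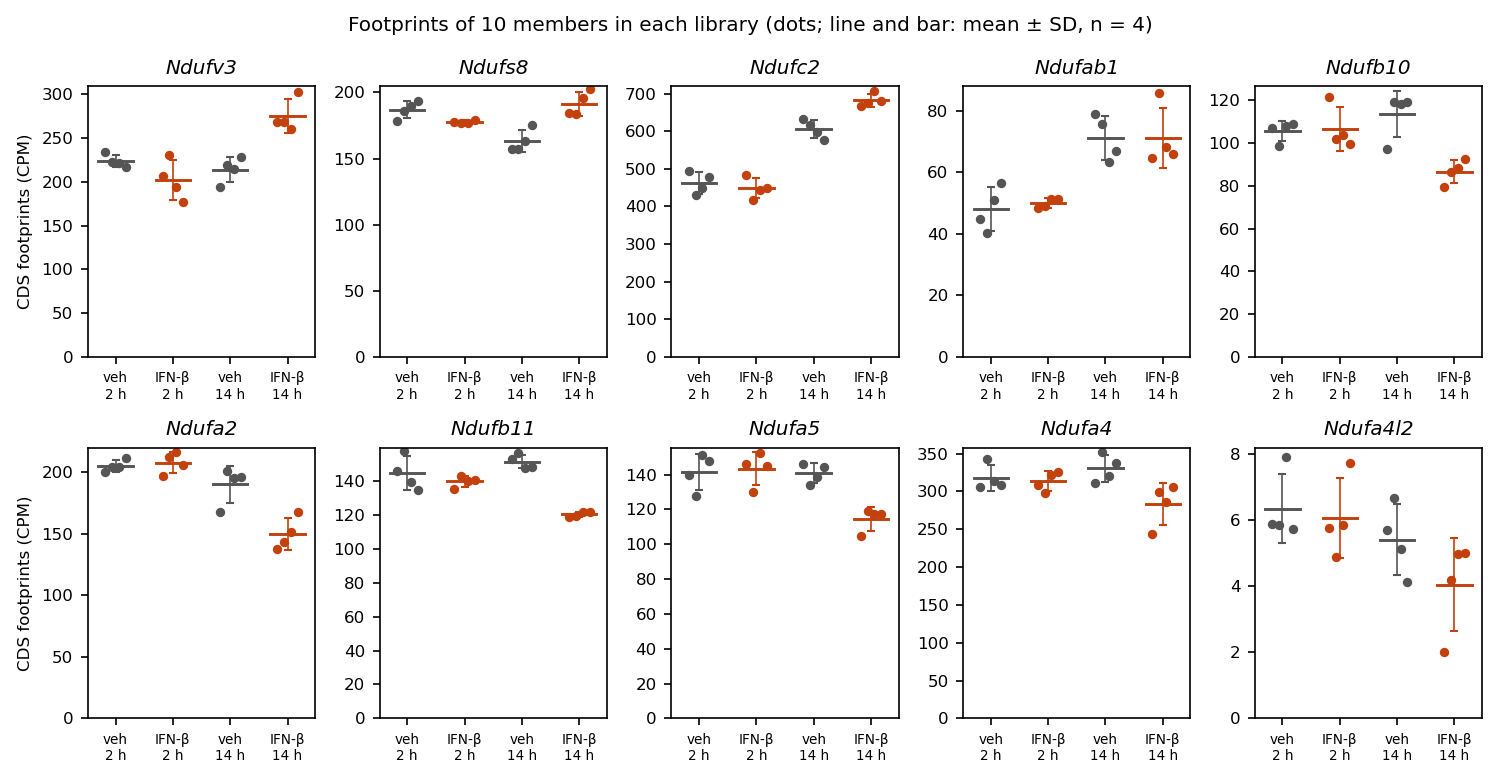
CDS footprints in CPM (vertical axes, linear from 0) of 10 members in each of the 16 footprint libraries, vehicle in grey and IFN-β in orange, with the mean and SD of 4 libraries. At 14 h the IFN-β libraries of Ndufv3, Ndufs8 and Ndufc2 lay above and those of Ndufb10, Ndufa2, Ndufb11, Ndufa5 and Ndufa4 below every vehicle library, while those of Ndufab1 and Ndufa4l2 overlapped.

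With the replicate number as a block, 22 members were called at 14 h (57.9%, against 62.8% of all genes), the same 17 and 5 more. These were Ndufa8 (-0.16, adjusted p = 0.00138), Ndufb2 (-0.18, adjusted p = 0.00154), Ndufc1 (-0.14, adjusted p = 0.00772), Ndufs5 (-0.19, adjusted p = 0.0147) and Ndufv1 (-0.10, adjusted p = 0.0338), all lower with IFN-β. Of the 21 members with under 5% shared CDS words, 3 rose and 10 fell in the unblocked fit, with a median of -0.16. Of the other 17 none rose and 4 fell, with a median of -0.10. In that fit 26.2% of all genes rose and 26.3% fell.

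Summed over the 38 members, footprints made up 0.678% ± 0.0141 of each vehicle library and 0.637% ± 0.0171 of each IFN-β library at 14 h (SD, n = 4). At 2 h the shares were 0.655% ± 0.0153 and 0.628% ± 0.0144. Scaled with TMM factors, which discount genes that change strongly, the sums were 6760 ± 163 and 6405 ± 242 CPM at 14 h and 6460 ± 135 and 6377 ± 160 CPM at 2 h. At 14 h the median member stood -0.21, -0.14, -0.10 and -0.09 log2 units from its vehicle mean in IFN-β replicates 1 to 4, and -0.06, 0.05, -0.02 and 0.01 in the vehicle replicates. The replicate farthest down was the smallest library.

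The third comparison asks whether the response differed between the exposures, and tests the time-by-treatment interaction in the 16 libraries of footprints. It was called for 8 members, 2 more positive and 6 more negative at 14 h (21.1%, against 30.9% of the 12508 genes tested, 15.4% and 15.5% by direction). Ndufv3 had the largest difference, 0.52 ± 0.12 SE on the log2 scale (adjusted p = 0.00281), and Ndufs8 followed with 0.32 ± 0.08 SE (adjusted p = 0.00715). The most negative was that of Ndufb10, -0.39 ± 0.12 SE (adjusted p = 0.0194), then Ndufa2 with -0.35 (adjusted p = 0.0153), Ndufa5 with -0.30 (adjusted p = 0.0286), and Ndufb5, Ndufb11 and Ndufb6 with -0.29, -0.27 and -0.27. So 4 of the 6 were B series subunits. With the replicate number as a block, 4 differences were positive and 13 negative (55.5% of all genes called). Ndufv3, Ndufs8, Ndufb10, Ndufa2 and Ndufb11 passed under each of 22 alternatives. Leaving out 14 h IFN-β replicate 1 or 3, 14 h vehicle replicate 3, or 2 h IFN-β replicate 2 or 6 left these 3 negative calls and removed those on Ndufa5, Ndufb5 and Ndufb6. Replicate numbers 2 and 3 occur at both times, 1 and 4 at 14 h alone and 5 and 6 at 2 h alone. The labels do not say whether a number marks the same culture at both times, and the part of the culture set in this difference was not tested.

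The start sites of members that moved in opposite directions were set side by side, because mRNAs whose first bases are a cytidine and a run of pyrimidines (5′ TOP mRNAs) are known to be translated under control of mTOR. RefSeq windows (build GRCm38.p6, 250 bases before to 50 after the start) were found for 33 of the 38 members, 2 of them with 2 windows, and those of Ndufa2 and Ndufs1, which fell, were not among them. Each line gives 15 bases before the RefSeq start in lower case and the first 15 transcribed bases in capitals, 5′ to 3′, first for the 3 members that rose and then for 4 that fell at 14 h.
Ndufv3 (chr17:31520100-31520129, plus strand): ggtccaccatggtgtGCGATTGGTGAACGT
Ndufs8 (chr19:3912760-3912789, minus strand): caatggcagcatcctGAGCTTAGGCTCCGC
Ndufc2 (chr7:97399988-97400017, plus strand): gccacttagaagcccGGAACCTCGCGTGCA
Ndufb10 (chr17:24724409-24724438, minus strand): ctgtcacctttctgcGCAGGCGTAGAGGTC
Ndufb11 (chrX:20617605-20617634, minus strand): cccctaagaggcccgCTCTTTAGAAGCTTG
Ndufb5 (chr3:32737048-32737077, plus strand): gccctccccacttccTTCCGTGGCCGGTGT
Ndufb6 (chr4:40279407-40279436, minus strand): tggcgtcatcactccGCGCCGCTTCCAGGC
A cytidine at the start followed by at least 4 pyrimidines was present in 1 of the 33 members, Ndufb11, which fell, and in 2.51% of all 32851 windows. Ndufb5 starts with 4 pyrimidines, the first of them a thymidine. The 4 falling members shown are all of the B series. Ndufa5, Ndufa3 and Ndufa10 fell by more than Ndufb6 and are not shown, and none of them starts with a pyrimidine.

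Motif letters were searched on both strands of the same 300-base windows. The share of members counts genes with a match in any of their windows, while the share of all windows counts single windows. The core of the interferon-stimulated response element, a pair of GAAA blocks with 2 bases between them, was present in 2 of the 33 members, Ndufs3 and Ndufa9 (6.06%, against 3.44% of all windows), whose footprints at 14 h had log2 fold changes of 0.06 and -0.09 without passing the test. The gamma-activated site, TTCNNNGAA, was present in 2 (Ndufa8 and Ndufb6; 6.06%, against 8.30%). The core bound by NRF1, a regulator of respiratory chain genes, GCGCATGC, was present in 3 members (Ndufa6, Ndufa8 and Ndufa11; 9.09%, against 2.71%), and the ETS core bound by GABP, CCGGAAG, in 4 (Ndufb6, Ndufb7, Ndufs3 and Ndufs8; 12.1%, against 8.86%). The YY1 core, AAGATGG, was present in 7 (Ndufa3, Ndufa9, Ndufb8, Ndufc1, Ndufs4, Ndufs6 and Ndufs7; 21.2%, against 6.34%), in each case on the sense strand and within the 50 bases after the start. Of these 7, 2 fell at 14 h (Ndufa3 and Ndufb8) and none rose, where 26.3% of all genes fell and 26.2% rose. A link between the core and the response was not tested.

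Total RNA counts of these genes were low, and the tables do not allow them to be read as mRNA levels. The median member had 10.5 counts per library at 2 h and 2 at 14 h, against 1143.5 and 1130 footprints. Actb, which is abundant in most cells, had a median of 97.5 total RNA counts at 14 h against 49231.5 footprints, and Eef1a1, a translation elongation factor, 18 against 10806.5. Per the labels a directional kit, which keeps the strand, was used for total RNA, while the strand setting of the counting is not given in the sources used here. Strand was therefore checked on 556 noncoding genes with at least 100 bp of exon opposite a single coding gene that averaged at least 100 footprints. The noncoding gene had more total RNA counts than its translated partner in 392 pairs at 2 h and 386 at 14 h, with medians of 196 against 33.9 and 68.3 against 13.7 counts per library. Noncoding genes other than pseudogenes with no exon opposite had a median of 0 counts at both times. In these pairs the total RNA counts thus lay mostly on the strand opposite the translated gene. No level, change or translational efficiency (TE, footprints over total RNA) of a single member is given for this reason.

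The planned tests are given as counts and are not read as results on complex I mRNA. In total RNA 23 members passed the filter at 2 h and 4 at 14 h, none was called, where 0.799% and 6.3% of the genes tested were, 1 at 2 h and none at 14 h had an unadjusted p under 0.05, and DESeq2 called none at either time. For TE at an adjusted p under 0.1, edgeR called no member at 2 h (0.815% of all genes; 2 members at an unadjusted p under 0.05) and DESeq2 called 1. At 14 h edgeR called 2 lower, where 8.45% of all genes were called, and neither call was kept with the replicate number as a block or without IFN-β replicate 1 or vehicle replicate 2.

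The rest of the respiratory chain was read with the same fit. At 2 h no subunit of complexes II, III, IV or V and none of the 17 assembly factors of complex I measured was called. At 14 h, where 26.3% of all genes were called lower and 26.2% higher, 10 of the 15 complex V subunits fell (66.7%, median -0.23), led by Atp5g1, a c-ring subunit of ATP synthase, from 89.5 ± 6.14 to 64.8 ± 4.37 CPM. In complex III 5 of 9 fell (55.6%, median -0.17), led by Uqcrh, the hinge protein, from 229.8 ± 10.8 to 159 ± 16.4 CPM. In complex IV 3 of 10 fell, a share near that of all genes (median -0.18), led by Cox7a2 (-0.37), and in complex II 1 of 4, Sdhd (-0.18), also near it. None of these 38 subunits of complexes II to V rose. No test of a difference between the complexes or from all genes was made.

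Of 17 assembly factors of complex I, 7 fell and 2 rose (median -0.18). By direction these were 41.2% and 11.8%, against 26.3% and 26.2% of all genes, shares that were not tested against each other. Together 52.9% were called, a share like the 52.5% of all genes. The called values ran from Dmac1 (-0.58 ± 0.08 SE, 40.6 to 27.2 CPM) to Dmac2 (0.56 ± 0.12 SE, 8.31 to 12.1 CPM), both needed to build the membrane arm. Of 11 regulators of mitochondrial genes, 2 were called at 2 h, where 7.25% of all genes were. These were Ppargc1a, a coactivator that promotes mitochondrial biogenesis, which fell (log2 fold change -1.29, adjusted p = 6.69e-06), and its relative Pprc1, which rose (log2 fold change 0.78, adjusted p = 0.0429). At 14 h Ppargc1a had 0.14 without passing and Pprc1 fell (-0.47). Of the 11, 6 fell at 14 h and 1 rose (54.5% and 9.09%, against 26.3% and 26.2% of all genes). Their median was -0.28, and the called values ran from Tfb2m (-0.59), a factor of mitochondrial transcription, to the nuclear receptor Esrra (0.30). The difference between the times was called for 5 of the 11, 1 more positive and 4 more negative at 14 h (45.5%, against 30.9% of all genes). The 7 mitochondrially encoded ND subunits were listed at 0 in all 16 footprint libraries, so the core of the membrane arm was not measured.

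**Figure D5:**
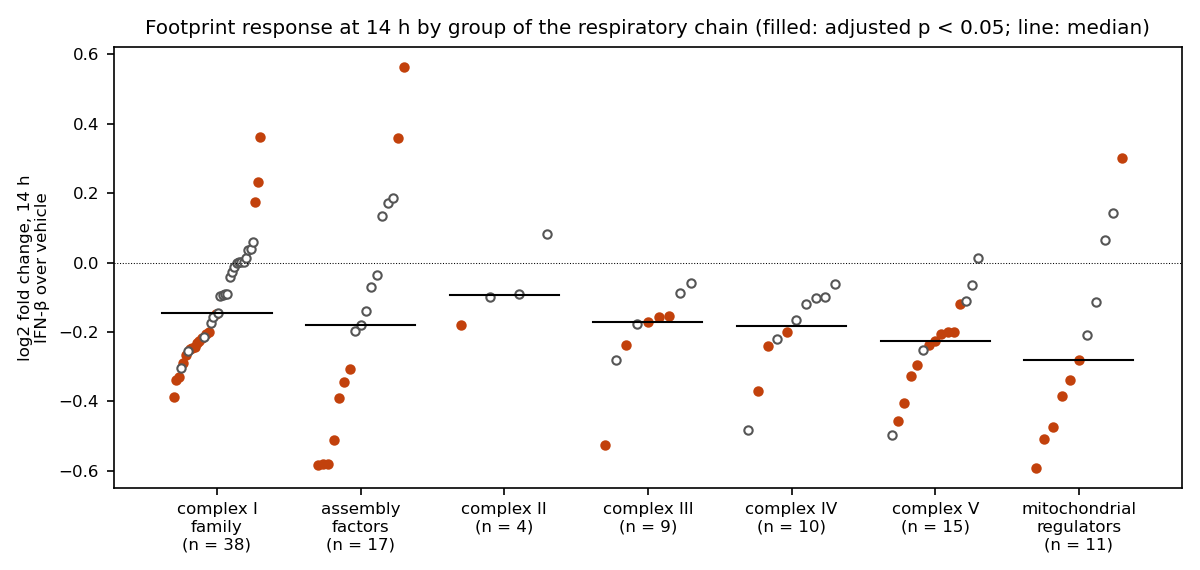
Log2 fold change of footprints at 14 h, IFN-β over vehicle (vertical axis), for the 38 members, the assembly factors of complex I, the nuclear subunits of complexes II to V and 11 regulators of mitochondrial genes, 1 point per gene with the median as a line. Filled points passed an adjusted p under 0.05, and the medians ran from -0.09 in complex II to -0.28 among the regulators.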

How the data were processed

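Footprint and total RNA libraries of NSCs given vehicle or IFN-β were analysed from raw counts per gene. The authors trimmed reads with Trim Galore 0.4.4, mapped them with Bowtie 0.12.7 to the mm10 (GRCm38) transcriptome, removed duplicates, which in short footprints can also remove separate molecules of abundant mRNAs, and deposited the counts, footprints in the CDS and total RNA over whole genes. Symbols, positions and CDS lengths came from GENCODE M21, which held 22205 of 23035 footprint identifiers. No column was left without a sample. Values of 1 member are not reported here singly.

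Genes were kept where 4 or more libraries of the comparison reached 10 counts, and were tested in edgeR 4.0.16 (TMM, quasi-likelihood, two-sided, Benjamini-Hochberg over all genes tested, R 4.3.3), IFN-β over vehicle within each time, and as interactions for time and TE. Alternatives were library totals, upper-quartile factors, DESeq2 1.42.0, other filters, the replicate number as a block and leaving out each library. The check of strand in total RNA was added after seeing the data. The fit was tested on simulated data. CPM are counts over the TMM-scaled library size. Per-library medians used log2(CPM + 0.5). Same-numbered footprint libraries correlated in their deviations from group means, by 0.33 to 0.81 at 2 h and 0.19 to 0.42 at 14 h. They were read as pairs, but the main fits left the pairing out, and the block was an alternative. Same-numbered total RNA libraries did not correlate in this way at 2 h (-0.48 to 0.39). At 14 h their correlations ran from -0.01 to 0.26, against -0.14 to 0.18 between different numbers. Full values are given for up to 4 called members with the most positive and 4 with the most negative log2 fold change at 14 h, up to 3 at each end at 2 h and of the time difference, and Ndufab1, Ndufa4 and Ndufa4l2, and for other lists for the called genes at the ends at 14 h. Members and lists were chosen with earlier results of these data known. Within a group, cultures came from different mice, and n is cultures. The labels do not say whether same-numbered vehicle and IFN-β cultures came from the same mouse.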

Additional observations from a re-analysis of the deposited data

Results flagged for a closer look

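In vehicle libraries at 14 h, replicate 1 of Ndufb10 (97.3 CPM) stood apart from the other 3 (118-119 CPM), and in IFN-β libraries at 14 h replicate 1 of Ndufa5 (105 CPM) stood apart from the other 3 (117-119 CPM). In vehicle libraries at 2 h replicate 5 of Ndufa4l2 (7.89 CPM) stood above the other 3 (5.71-5.87 CPM). These came from 40 groups of 4 libraries (10 members in 4 groups), of which chance would mark about 1 in 20.

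The IFN-β response differed between 14 h and 2 h, by the time-by-treatment interaction, for 8 of the 38 members. This share was below the 30.9% of all genes tested that were called (15.4% more positive and 15.5% more negative at 14 h). The difference in log2 fold change was 0.52 for Ndufv3 and 0.32 for Ndufs8, and -0.39 for Ndufb10, -0.35 for Ndufa2, -0.30 for Ndufa5, -0.29 for Ndufb5, -0.27 for Ndufb11 and -0.27 for Ndufb6.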

How the results depend on the processing

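At 14 h, 13 of the 17 member calls in footprints held under each of 14 alternatives, and the exceptions were Ndufa4, Ndufb3, Ndufb8 and Ndufv2. No member that was named with its values changed direction while called. At 2 h the members' median log2 fold change was -0.067 on library totals alone and -0.069 with upper-quartile factors, and 1 member was called lower with the replicate block. For the difference between times, 3 members were called more negative without a filter on low counts, 3 to 7 without single replicates, and 13, with 4 more positive, with the replicate block. In total RNA at 2 h the median was -0.18 over the 2 members with a mean of at least 50 counts. For TE at 2 h the median was -0.66 on library totals alone and 0.17 over the same 2 members, and 1 member was called higher by DESeq2's Wald test, 1 by its likelihood ratio test and 0 to 1 without single replicates. For TE at 14 h, 0 members were called lower with the replicate block and 0 to 2 without single replicates, and the median ranged from -0.26 to 0.15 without them. The causes were not tested. In total RNA 34 of 38 members averaged under 10 counts at 14 h. No member reached a mean of 50 counts there, so that setting gave no value for total RNA and TE at 14 h.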
